A study of Mus musculus with 16 samples.

Results

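The matrix metalloproteinases (Mmp), the ADAMTS proteases (Adamts) and the tissue inhibitors of metalloproteinases (Timp) were followed in mouse lung. Members were all genes whose array name is Mmp, Adamts or Timp followed directly by a digit, which gave 46 genes with 66 probes. Of these, 36 genes had a probe well above background on 4 or more of 16 arrays and were kept (16 of 23 Mmp genes, 16 of 19 Adamts genes and 4 of 4 Timp genes), among 25675 genes kept in all. The other 10 members, Mmp1a, Mmp1b, Mmp10, Mmp16, Mmp20, Mmp21, Mmp28, Adamts16, Adamts19 and Adamts20, were above background on 0 to 3 arrays and were not tested. Lung RNA of female mice was measured in 5 groups, with 1 single-colour array per sample. There were 4 ARF-DTR samples aged 12 months and given diphtheria toxin (DT), 4 ARF-DTR samples aged 12 months and given saline (PBS), 4 untreated ARF-DTR samples aged 2 months, 2 wild type samples aged 12 months and given DT, and 2 wild type samples aged 12 months and given PBS. ARF-DTR mice carry the diphtheria toxin receptor under control of the Arf promoter, so DT can kill cells in which that promoter is active. Cdkn2a, which encodes Arf, is switched on in senescent cells. Each intraperitoneal DT dose was 50 microgram per kg, repeated every 2 weeks for 1 month. The wild type mice, with 2 samples per group, serve as the comparison for DT without the transgene. For 1 of the 2 wild type PBS samples the description names DT, while its title and treatment give PBS. It was kept as PBS, so every comparison with wild type PBS carries this doubt. The 2-month mice had no injection, and the labels give neither the strain background nor the number of transgenic lines.

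Metalloproteinases of these families are zinc enzymes that cut collagens, elastin, laminins and proteoglycans, and most are made as inactive precursors. Mmp12, the macrophage elastase, degrades elastin in the lung, Mmp2 and Mmp9 are gelatinases, and Mmp14 is a membrane-bound enzyme that activates pro-Mmp2. ADAMTS proteases are secreted enzymes that remove propeptides from procollagens or cut proteoglycans such as versican and aggrecan. The TIMP proteins bind and inhibit metalloproteinases, and Mmp12 and Timp1 are often counted among the secreted products of senescent cells and of macrophages in inflamed lung.

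A cluster of 10 Mmp genes lies on chromosome 9 within 427 kb (build GRCm38.p6), in the order Mmp13, Mmp12, Mmp1b, Mmp3, Mmp1a, Mmp10, Mmp8, Mmp27, Mmp20 and Mmp7. Of these, 6 were kept (Mmp3, Mmp7, Mmp8, Mmp12, Mmp13 and Mmp27). The AP-1 motif TGANTCA, whose letters read the same on both strands when N is any base, was searched in RefSeq windows of 250 bases before to 50 after each gene start. It was found in 8 of the 32 members with a window, and all 8 were genes of this cluster, where only Mmp8 and Mmp27 had none. Of all 27025 genes with a window, 8.97% hold it, and of all 32851 windows, 7.81%. Mmp12 and Mmp7 each have a further annotated start whose window lacks it, which for Mmp12 is the more upstream one. The 70 bases before the start are shown for 5 cluster genes, 4 kept ones and Mmp10, which was above background on 0 arrays, so that their copies of the motif (capitals) can be set side by side. Each sequence is on the + strand.
Mmp12, chr9:7347304-7347373: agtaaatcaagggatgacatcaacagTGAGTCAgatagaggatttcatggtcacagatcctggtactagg
Mmp13, chr9:7272444-7272513: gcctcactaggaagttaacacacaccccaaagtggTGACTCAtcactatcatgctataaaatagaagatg
Mmp3, chr9:7445752-7445821: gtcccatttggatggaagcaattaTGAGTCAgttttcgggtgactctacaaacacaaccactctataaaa
Mmp7, chr9:7692020-7692089: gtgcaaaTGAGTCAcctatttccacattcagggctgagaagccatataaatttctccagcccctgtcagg
Mmp10, chr9:7502272-7502341: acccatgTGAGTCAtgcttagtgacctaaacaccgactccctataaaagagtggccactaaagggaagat
The motif starts 44 bases before the start of Mmp12, 35 before that of Mmp13, 46 before that of Mmp3, and 63 before those of Mmp7 and Mmp10. A match of letters is a description of the sequence and not a measured binding site.

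Signals were compared as log2 levels, meaning log2 of the array signal minus the 75th percentile of that array, so that 0 is the level of the 75th percentile probe. Levels of different genes come from different probes and were not compared with each other. The 75th percentile lay between 613 and 1088 intensity units, and 55.6% to 66.9% of the probes were well above background. The ARF-DTR arrays of PBS-treated and 2-month mice were on slide 1. On slide 2 were all wild type arrays and those of DT-treated ARF-DTR mice. Age, DT in wild type, and DT-treated ARF-DTR against wild type were therefore compared within a slide, while in the ARF-DTR mice slide and DT cannot be told apart. Within a slide, each group held its own array positions. Row 1 held the 2-month arrays on slide 1 and the DT-treated ARF-DTR arrays on slide 2. Row 2 held the PBS-treated ARF-DTR arrays on slide 1 and, on slide 2, wild type PBS (columns 1 and 2) and DT (columns 3 and 4). Group and position thus cannot be told apart, nor can age and PBS injection. All 6 lung identity markers, which include surfactant protein genes, were kept, with a mean log2 level between 6.64 and 7.19 on every array. Each change below is a log2 difference with its standard error from 1 limma fit over all 16 arrays, and a member passed where its p, adjusted by Benjamini-Hochberg over 25675 genes, was under 0.05. The labels do not say that the samples of a group came from separate mice, so each p-value covers only how these samples varied, which may be technical. In whole-lung RNA, fewer cells of a type and less RNA per cell cannot be told apart.

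With age, 3 of the 36 members fell and 0 rose, Adamts14, Adamts2 and Mmp2 (8.33%, against 6.14% of all genes, of which 2.73% higher and 3.42% lower; limma, unadjusted p under 0.05 for 4 members in each direction). With DT in ARF-DTR lungs, 5 members rose (Mmp19, Mmp12, Mmp2, Mmp13 and Timp1) and 3 fell (Adamts7, Adamts1 and Timp4), 22.2% of the members against 29.3% of all genes (15.8% higher and 13.4% lower). The median change of the members was -0.08 with age and -0.08 with DT, against -0.03 and 0.00 over all genes. For DT in wild type lungs, 0 members passed (limma, 0.175% of all genes, with 0.0545% higher and 0.121% lower; unadjusted p under 0.05 for 5 higher and 6 lower members). Of the 36 members, 6 lay higher and 12 lower on both wild type DT arrays than on both PBS arrays. With 2 arrays per group such separation was therefore common among members that did not pass, and its share over all genes was not computed. On slide 2, set against wild type PBS, 3 members were higher and 2 lower in DT-treated ARF-DTR lungs (13.9%, against 5.55% of all genes, 2.14% higher and 3.42% lower). Set against wild type DT, 1 member was higher (2.78%, against 0.923% of all genes, 0.608% higher and 0.315% lower). Leaving out 1 array changed these counts. Past the threshold with age was 1 member without 2-month replicate 1, 2 or 4 or PBS replicate 3 or 4, 6 members without DT replicate 2 and 5 without either wild type DT array. With DT in ARF-DTR it was 5 members without PBS replicate 2 and 4 without DT replicate 4, and with DT in wild type it was 1 member without ARF-DTR DT replicate 2 or either wild type DT array. The count against wild type PBS depended on both wild type PBS arrays, with 0 members past the threshold without replicate 1 and 2 without replicate 2, and it was 3 without DT replicate 3 or 4. The count against wild type DT was 2 without wild type DT replicate 1 or 2-month replicate 3.

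**Figure D1:**
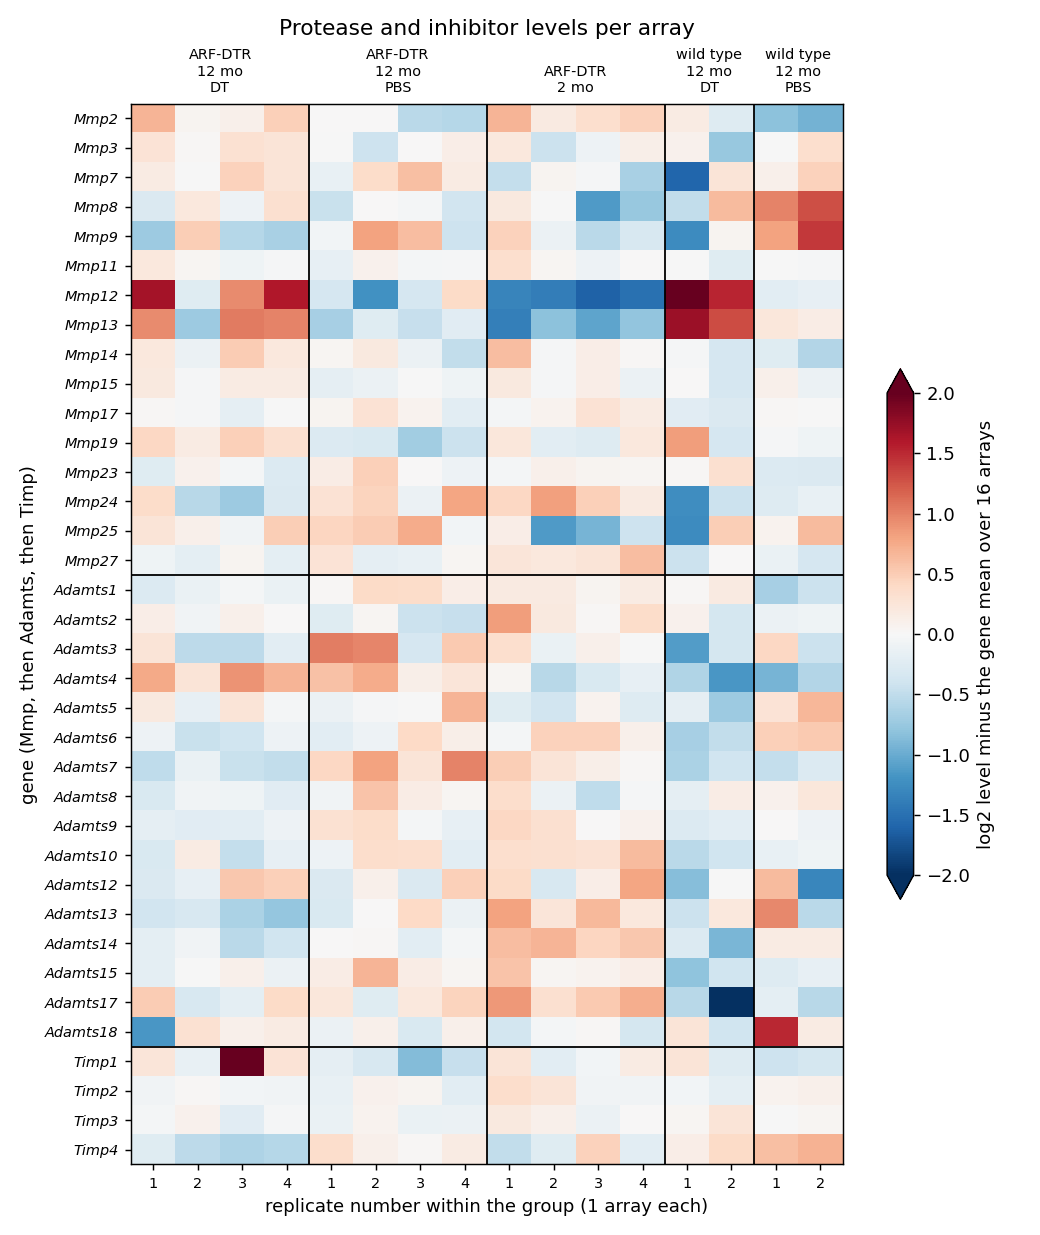
Log2 level of each of the 36 members (rows, Mmp then Adamts then Timp) on each of the 16 arrays (columns, by group and replicate), as the difference from the mean of that gene over all arrays, with red above it and blue below it. Mmp12 and Mmp13 are red in 3 of 4 DT-treated ARF-DTR arrays and both DT-treated wild type arrays, and Timp1 is dark red on 1 array.

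**Figure D2:**
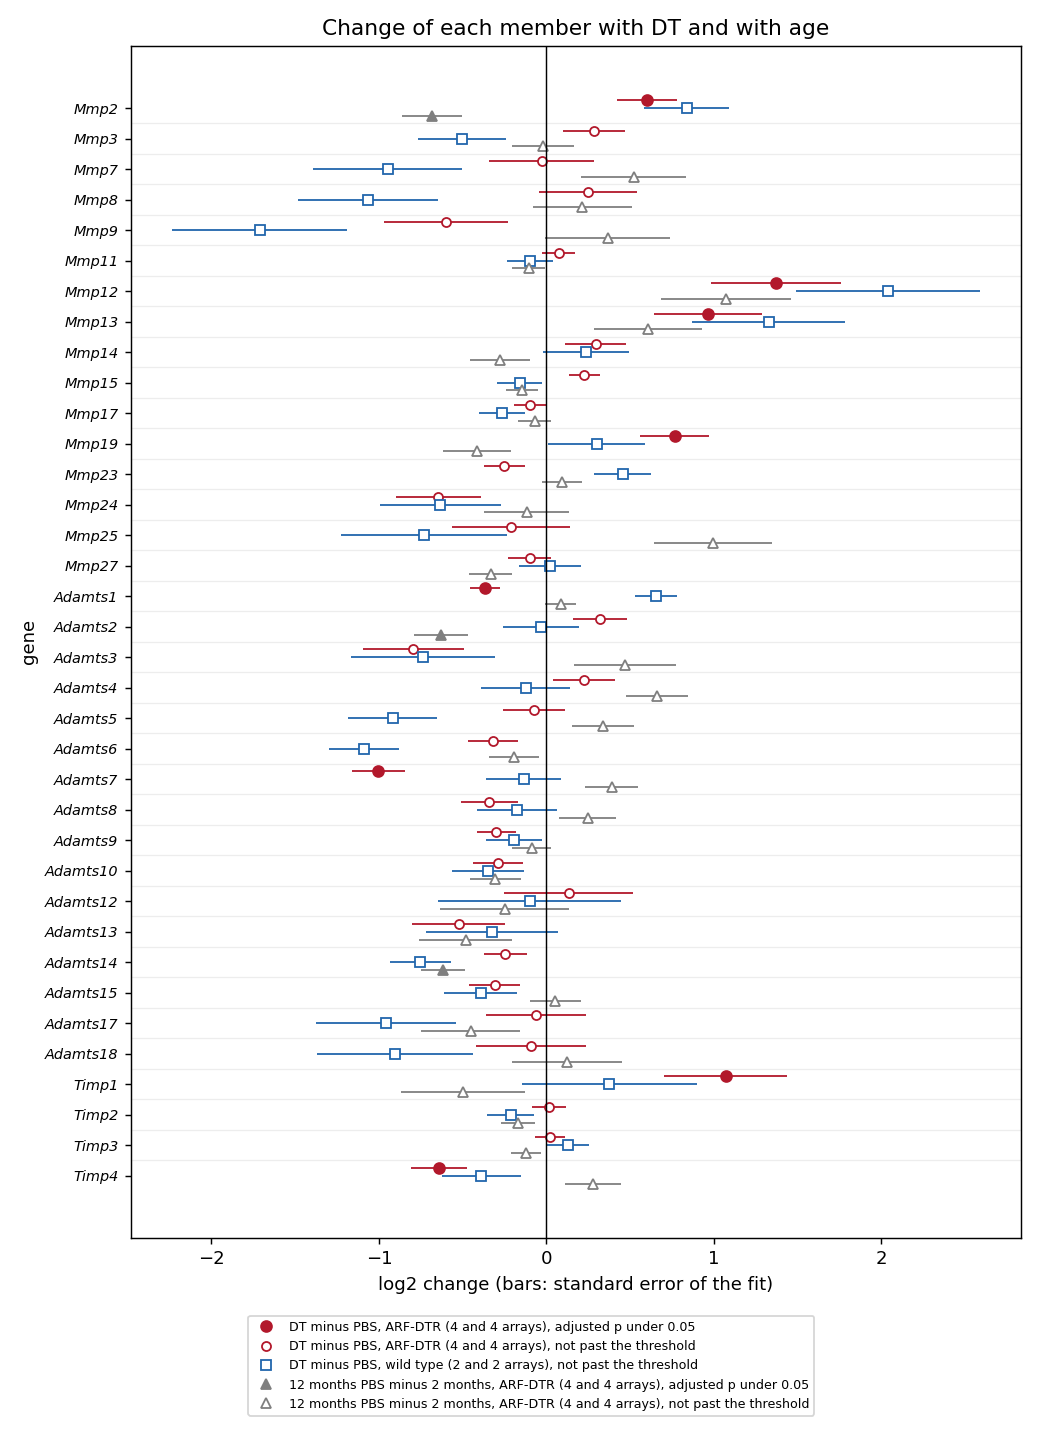
Log2 change (horizontal axis) of each of the 36 members (vertical axis) with DT in ARF-DTR, with DT in wild type, and with age in ARF-DTR lungs, with bars for the standard error of the fit. Filled symbols have an adjusted p under 0.05: 8 members with DT in ARF-DTR, 0 in wild type and 3 with age.

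Mmp12, the macrophage elastase, had the largest positive change with DT among the 36 members in ARF-DTR lungs, where it passed, and in wild type lungs, where it did not. Its probe lies on chromosome 9, + strand, in build mm9, and is shown because the values of Mmp12 rest on this probe alone.
Mmp12 probe, chr9:7352935-7352994: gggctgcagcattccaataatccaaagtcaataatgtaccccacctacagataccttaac
The log2 level of Mmp12 was -2.0, -3.91, -2.72 and -2.06 in DT-treated ARF-DTR lungs, against -4.01, -4.87, -4.01 and -3.28 in PBS-treated ones and -4.98, -5.04, -5.28 and -5.15 at 2 months. In wild type lungs it was -1.48 and -2.14 with DT, against -3.88 and -3.82 with PBS. The DT-treated ARF-DTR samples lay above every PBS sample except replicate 2, which lay among them, while all 12-month samples of both genotypes lay above all 2-month samples. Against PBS, Mmp12 rose 2.59-fold with DT in ARF-DTR lungs (1.37 ± 0.39, adjusted p = 0.0189). Against 2 months, it rose 5.43-fold in the DT-treated 12-month lungs (2.44 ± 0.39, adjusted p = 0.000585). The wild type change of 2.04 ± 0.55 did not pass (adjusted p = 0.15), nor did the change with age of 1.07 ± 0.39 (0.132) or the difference in DT response between the genotypes (-0.67 ± 0.67, 0.598). Within slide 2, DT-treated ARF-DTR lungs were 1.18 ± 0.48 above wild type PBS lungs (adjusted p = 0.163). The call with DT was lost without PBS replicate 2 (1.09, adjusted p = 0.0563), DT replicate 1 (1.15, 0.0555) or DT replicate 4 (1.17, 0.0608), and with only the groups compared (0.0648). Without DT replicate 2, the age difference passed (adjusted p = 0.0449), as did the difference from wild type PBS (1.59, 0.0329). With normexp background correction the rise with DT was 0.91, and that against 2 months was 1.33 (adjusted p = 0.000509).

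Mmp13, a collagenase and the cluster neighbour of Mmp12, followed the same order of groups. Its log2 level was -3.37, -5.05, -3.27 and -3.33 in DT-treated ARF-DTR lungs, against -4.99, -4.56, -4.78 and -4.55 in PBS-treated ones and -5.68, -5.13, -5.37 and -5.10 at 2 months, where 1 array was not well above background. Wild type lungs had -2.60 and -3.01 with DT, against -4.09 and -4.18 with PBS. DT replicate 2 lay below all PBS samples and the other DT-treated ARF-DTR samples lay above all of them. Mmp13 rose 1.95-fold with DT in ARF-DTR lungs (0.97 ± 0.32, adjusted p = 0.0387), and the DT-treated lungs were 2.97-fold above the 2-month lungs (1.57 ± 0.32, 0.00288; 0.87 with normexp, 0.000485). The wild type change with DT was 1.33 ± 0.46 (adjusted p = 0.237), and the change with age was 0.60 ± 0.32 (0.327). The DT call was lost without any 1 of the 4 PBS arrays or of DT replicates 1, 3 and 4 (0.81 to 1.02, adjusted p = 0.0539 to 0.112), without the filter on dim probes (0.058) and with only the groups compared (0.0968). Without DT replicate 2 the change was 1.40 (adjusted p = 0.000153).

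Macrophage markers also rose with DT in ARF-DTR lungs. Of 11 monocyte and interstitial macrophage markers kept (Ly6c2 and Cd163 were not), 7 rose with DT in ARF-DTR lungs and 0 fell. Of all genes, 15.8% rose and 13.4% fell in that comparison. The 7 were led by Apoe (0.61, adjusted p = 0.000376) and the complement genes C1qa (0.73) and C1qb (0.79). Of the 11 markers, 0 passed with DT in wild type lungs (limma, unadjusted p under 0.05 for 8 higher), with a median change of 0.51. The log2 of their summed level was 7.52 to 7.81 in DT-treated ARF-DTR lungs, against 7.20 to 7.35 in PBS-treated ones and 7.02 to 7.19 at 2 months. It was 7.67 to 7.82 in DT-treated wild type lungs, against 7.35 to 7.42 in PBS-treated ones. Of 12 alveolar macrophage markers kept (Siglec5 was not), 7 rose and 0 fell with DT in ARF-DTR lungs, with a summed log2 level of 8.65 to 9.07 against 7.97 to 8.66. At 2 months this sum was 8.21 to 8.32, inside the range with PBS. With age, 0 of the 12 passed (limma, unadjusted p under 0.05 for 1 higher and 2 lower), with a median change of -0.15. The alveolar macrophage sum in wild type lungs was 8.72 to 9.17 with DT, against 8.21 to 8.34 with PBS, and 0 of the 12 passed there (limma, unadjusted p under 0.05 for 7 higher). The part of both marker lists in the rises of Mmp12 and Mmp13 was not tested.

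**Figure D3:**
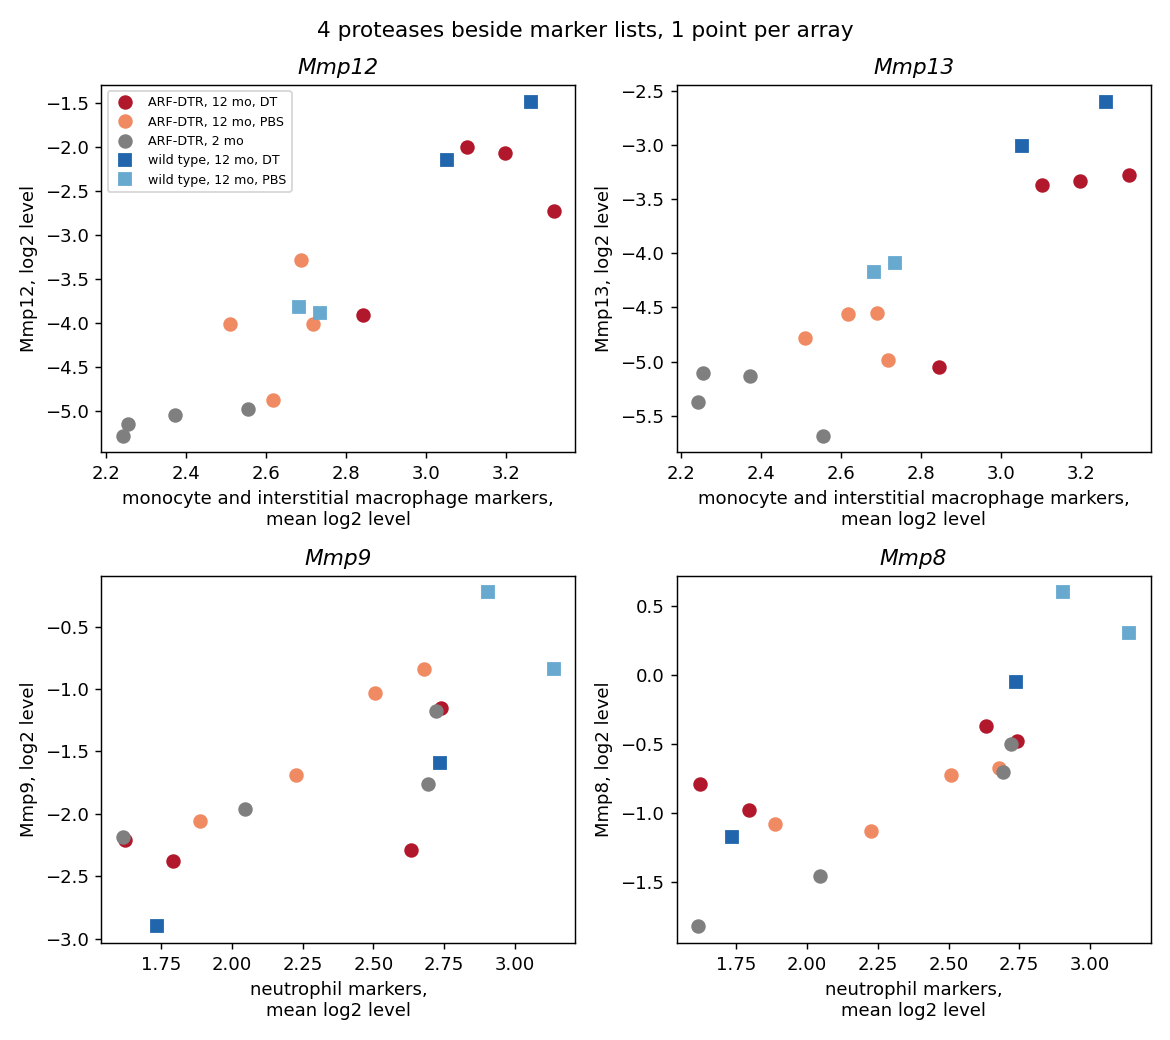
Log2 levels of Mmp12 and Mmp13 (upper plots) against the mean log2 level of 11 monocyte and interstitial macrophage markers, and of Mmp9 and Mmp8 (lower plots) against that of 11 neutrophil markers, with 1 point per array and circles for ARF-DTR and squares for wild type. DT-treated arrays lie at the right of the upper plots, and both wild type PBS arrays lie at the upper right of the lower plots.

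The other kept genes of the cluster did not pass with age or with DT. Mmp3, the stromelysin made mainly by fibroblasts, had log2 levels of 2.34, 2.09, 2.37 and 2.32 in DT-treated ARF-DTR lungs, against 2.07, 1.65, 2.07 and 2.19 in PBS-treated ones and 2.27, 1.64, 1.97 and 2.18 at 2 months. The wild type values of Mmp3 were 2.15 and 1.31 with DT, against 2.06 and 2.41 with PBS. These groups overlapped, and the DT change was 0.29 ± 0.19 in ARF-DTR (adjusted p = 0.265) and -0.50 ± 0.26 in wild type (0.459). Mmp7, matrilysin, was above background on 10 arrays, with levels of -5.49 to -5.0 in DT-treated and -5.62 to -4.87 in PBS-treated ARF-DTR lungs. Mmp27 ranged from -4.28 to -4.02 in DT-treated 12-month ARF-DTR lungs, against -3.87 to -3.46 at 2 months (-0.44 ± 0.13, adjusted p = 0.0226). That fall of Mmp27 turned to 0.09 with normexp background correction.

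The gelatinase Mmp2 fell with age and was higher again with DT. Its log2 level was 2.79, 2.16, 2.22 and 2.59 in DT-treated ARF-DTR lungs, against 2.12, 2.12, 1.57 and 1.55 in PBS-treated ones and 2.78, 2.29, 2.44 and 2.57 at 2 months. Among wild type mice, it was at 2.28 and 1.85 with DT, against 1.30 and 1.16 with PBS. Every DT-treated ARF-DTR sample and every 2-month sample lay above every PBS-treated ARF-DTR sample. The wild type groups, of 2 arrays each, did not overlap for Mmp2, as for 6 higher and 12 lower members in all, of which 0 passed. Mmp2 was 1.61-fold lower at 12 months with PBS than at 2 months (-0.68 ± 0.18, adjusted p = 0.0416), and 1.52-fold higher with DT than with PBS (0.60 ± 0.18, 0.025). These comparisons share the PBS arrays. Within slide 2, DT-treated ARF-DTR lungs were 2.31-fold above wild type PBS lungs (1.21 ± 0.22, adjusted p = 0.011), while the wild type change with DT was 0.84 ± 0.26 (0.191). The age call was lost without any 1 of the 2-month arrays, PBS replicate 3 or 4, DT replicate 4 or either wild type PBS array (-0.76 to -0.59, adjusted p = 0.0535 to 0.122). The DT call was lost without PBS replicate 3 or 4 or DT replicate 1 or 4 (0.48 to 0.55, adjusted p = 0.0684 to 0.073), and the difference from wild type PBS without either wild type PBS array (adjusted p = 0.075 and 0.079). With only the groups compared, these 3 calls were also lost (adjusted p = 0.0732, 0.0531 and 0.0515), and without the filter on dim probes the age call was (0.0639).

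Fibroblast genes moved with Mmp2 in the age comparison. Of 11 fibroblast markers, all kept, 4 fell with age and 0 rose, against 3.42% of all genes lower and 2.73% higher. Those of smallest p were Col1a2 (-0.90, adjusted p = 0.00188), Npnt (-0.56) and Col1a1 (-1.09). The summed log2 level of the 11 was 8.36 to 8.50 at 12 months with PBS, against 8.72 to 8.81 at 2 months. With DT in ARF-DTR lungs, 2 of the 11 rose and 1 fell, against 15.8% of all genes higher and 13.4% lower, with a median change of 0.04. The fibroblast sum was 8.63 to 8.80 in DT-treated against 8.36 to 8.50 in PBS-treated lungs. The mean log2 level of the list overlapped, at 3.22 to 3.464 against 3.058 to 3.585. In wild type lungs, Mmp2 was higher with DT, while the fibroblast sum was lower, at 8.67 to 8.70 against 8.80 to 8.84 with PBS. The mean log2 level of the list was instead higher with DT there, at 3.26 to 3.43 against 3.18 to 3.23 with PBS. Of the 11 markers, 0 passed with DT in wild type (limma, unadjusted p under 0.05 for 1 in each direction), with a median change of 0.09. Their part in the changes of Mmp2, and of Adamts2 and Adamts14 below, was not tested. Mmp14, the activator of pro-Mmp2, had levels of -0.93, -1.25, -0.64 and -0.93 in DT-treated ARF-DTR lungs, against -1.10, -0.94, -1.25 and -1.63 in PBS-treated ones and -0.52, -1.16, -1.01 and -1.12 at 2 months. In wild type lungs Mmp14 was at -1.16 and -1.48 with DT, against -1.39 and -1.72 with PBS. Its ARF-DTR groups overlapped, while the DT-treated and the 2-month ARF-DTR samples all lay above both wild type PBS samples. It had changes of 0.29 ± 0.18 with DT in ARF-DTR (adjusted p = 0.238) and -0.28 ± 0.18 with age (0.432), and its difference of 0.62 ± 0.22 from wild type PBS did not pass (0.121).

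The neutrophil enzymes Mmp9, gelatinase B, and Mmp8, a collagenase, stood highest in the wild type PBS lungs. The log2 level of Mmp9 was -2.37, -1.15, -2.21 and -2.29 in DT-treated ARF-DTR lungs, against -1.69, -0.84, -1.03 and -2.06 in PBS-treated ones and -1.18, -1.76, -2.18 and -1.96 at 2 months. Wild type lungs had -2.90 and -1.59 with DT, against -0.84 and -0.23 with PBS. The ARF-DTR groups overlapped, and the wild type groups did not. Mmp9 did not pass in any of the 8 comparisons, with changes of -0.60 ± 0.37 with DT in ARF-DTR (adjusted p = 0.24), -1.71 ± 0.53 in wild type (0.192), and -1.47 ± 0.45 for DT-treated ARF-DTR against wild type PBS (0.0756). Without DT replicate 2, the last passed (-1.76, adjusted p = 0.0397). Mmp8 ranged from -0.98 to -0.37 in DT-treated ARF-DTR, -1.13 to -0.68 in PBS-treated ARF-DTR and -1.82 to -0.50 in 2-month lungs. Its wild type range was -1.18 to -0.05 with DT, against 0.30 to 0.60 with PBS. It was 2.55-fold lower in ARF-DTR than in wild type lungs with PBS (-1.35 ± 0.36, adjusted p = 0.0181), a comparison that crossed slides and was lost without wild type PBS replicate 1 (0.0705) or 2 (0.127). Of 11 neutrophil markers, all kept, Retnlg passed lower (-1.09) and Elane higher (1.09) in ARF-DTR than in wild type lungs with PBS, with a median change of -1.09 over the list. Of all genes, 10.9% were higher and 12.7% lower in that comparison. With DT in wild type lungs, 0 of the 11 passed (limma, unadjusted p under 0.05 for 3 lower). The mean log2 level of the list was 1.62 to 2.74 in DT-treated ARF-DTR, 1.89 to 2.68 in PBS-treated ARF-DTR and 1.62 to 2.72 in 2-month lungs. It was 1.74 to 2.74 in DT-treated and 2.91 to 3.14 in PBS-treated wild type lungs, and its part in the differences was not tested.

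Mmp19, a secreted enzyme of basement membranes, rose with DT. Its log2 level was -1.65, -1.90, -1.58 and -1.74 in DT-treated ARF-DTR lungs, against -2.33, -2.37, -2.75 and -2.49 in PBS-treated ones and -1.84, -2.27, -2.32 and -1.85 at 2 months. The wild type values of this gene were -1.23 and -2.40 with DT, against -2.08 and -2.14 with PBS. All DT-treated ARF-DTR samples lay above all PBS-treated ones, and the DT-treated wild type samples lay on either side of the PBS ones. The rise was 1.70-fold (0.77 ± 0.21, adjusted p = 0.0146) and passed under all 25 alternatives. Against wild type PBS of the same slide the difference was 0.40 ± 0.25 and did not pass (adjusted p = 0.388). Of the remaining Mmp genes, Mmp11, Mmp15, Mmp17, Mmp23, Mmp24 and Mmp25 did not pass with age or with DT in ARF-DTR lungs, with DT changes between -0.65 (Mmp24) and 0.23 (Mmp15). The membrane-type enzyme Mmp24, which was above background on 7 arrays, changed by -0.76 ± 0.26 in DT-treated 12-month against 2-month lungs (adjusted p = 0.0376), but by 0.22 with normexp background correction. Mmp25, a membrane-anchored enzyme of leukocytes, was above background on 4 of 4 arrays at 12 months with PBS, against 1 of 4 at 2 months, with levels of -5.25 to -4.45 against -6.32 to -5.06 (1.0 ± 0.35, adjusted p = 0.122).

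**Figure D4:**
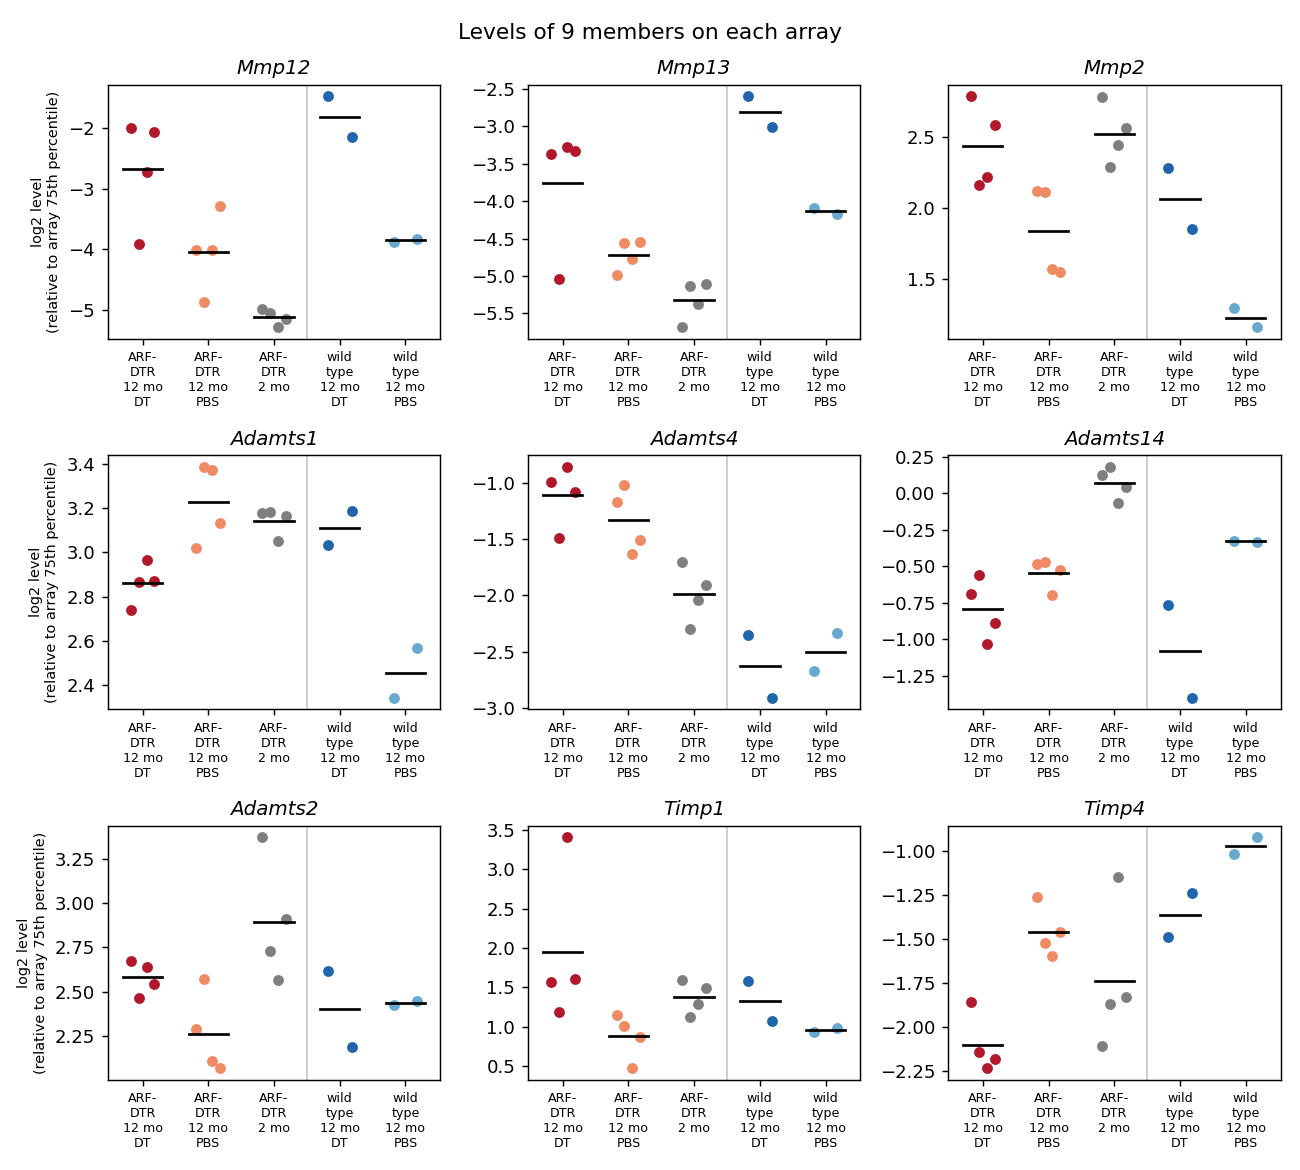
Log2 level (vertical axis, relative to the 75th percentile of the array) of 9 members on each array, with 1 point per sample, black lines for group means and groups along the horizontal axis. Adamts4 lies higher in all 3 ARF-DTR groups than in both wild type groups, Adamts14 is highest at 2 months, and the Timp1 mean with DT is raised by 1 sample at 3.41.

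Procollagen N-proteinases remove the amino-terminal propeptide of fibrillar procollagens. Of the 3 kept, Adamts14 and Adamts2 passed lower with age, where 3.42% of all genes did. The group is small, and each call was lost under alternatives given below. Adamts14 had log2 levels of -0.69, -0.56, -1.03 and -0.89 in DT-treated ARF-DTR lungs, against -0.49, -0.47, -0.70 and -0.53 in PBS-treated ones and 0.13, 0.18, -0.07 and 0.04 at 2 months. Among wild type mice, Adamts14 was at -0.77 and -1.40 with DT, against -0.33 and -0.33 with PBS. Every 2-month sample lay above every 12-month sample of both genotypes. Adamts14 was 1.53-fold lower at 12 months with PBS than at 2 months (-0.62 ± 0.13, adjusted p = 0.0139), and 1.82-fold lower at 12 months with DT (-0.86 ± 0.13, 0.000405). A dimmer second probe, above background on 7 arrays, changed by -0.10 with age, and the mean of both probes did not pass (-0.36, adjusted p = 0.382). Adamts2 had levels of 2.67, 2.46, 2.64 and 2.54 in DT-treated ARF-DTR lungs, against 2.29, 2.57, 2.11 and 2.07 in PBS-treated ones and 3.37, 2.73, 2.56 and 2.91 at 2 months. In wild type lungs Adamts2 was at 2.62 and 2.19 with DT, against 2.43 and 2.45 with PBS. PBS replicate 2 just overlapped the 2-month samples, and the DT-treated and the 2-month ARF-DTR samples all lay above both wild type PBS samples. Adamts2 was 1.55-fold lower at 12 months with PBS (-0.63 ± 0.16, adjusted p = 0.0354), and its second probe changed by -0.63. The call was lost without 2-month replicate 1, 2 or 4 or PBS replicate 1, 3 or 4 (-0.69 to -0.47, adjusted p = 0.0542 to 0.104), with the mean of both probes (0.0566), without the filter on dim probes (0.0551) and with only the groups compared (0.111). Adamts3, the third enzyme of this type, was above background on 4 arrays and did not pass in any comparison.

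Proteases that cut versican and aggrecan differed in where they changed. Adamts4, an aggrecanase, had levels of -0.99, -1.49, -0.86 and -1.08 in DT-treated ARF-DTR lungs, against -1.17, -1.01, -1.63 and -1.51 in PBS-treated ones and -1.71, -2.30, -2.05 and -1.91 at 2 months. Wild type lungs had -2.35 and -2.91 with DT, against -2.67 and -2.34 with PBS. All 12-month ARF-DTR samples lay above all 2-month and all wild type samples. Within slide 2, DT-treated ARF-DTR lungs were 2.89-fold above wild type DT lungs (1.53 ± 0.23, adjusted p = 0.0107) and 2.65-fold above wild type PBS lungs (1.40 ± 0.23, 0.00751). A second probe gave 1.60 and 1.47 for these differences. Across slides, PBS-treated ARF-DTR lungs were 1.18 ± 0.23 above wild type PBS lungs (adjusted p = 0.00384), and DT-treated 12-month lungs were 0.89 ± 0.19 above 2-month lungs (0.00331). Neither age (0.66 ± 0.19, adjusted p = 0.0549) nor DT in ARF-DTR (0.23 ± 0.19, 0.383) or in wild type (-0.13 ± 0.26, 0.905) passed. The difference from wild type DT was lost without wild type DT replicate 2 (1.25, adjusted p = 0.0662), with slide 2 alone (0.0772) and with only the groups compared (0.12), and both differences from wild type PBS were lost without wild type PBS replicate 1 (1.24 and 1.01, adjusted p = 0.0803 and 0.0534).

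Adamts1, which cuts versican and aggrecan and also binds vascular growth factor, was the only one of the 36 members whose DT response passed the test of a difference between the genotypes. Its log2 level was 2.74, 2.87, 2.97 and 2.87 in DT-treated ARF-DTR lungs, against 3.02, 3.39, 3.37 and 3.13 in PBS-treated ones and 3.18, 3.18, 3.05 and 3.17 at 2 months. The wild type values of this gene were 3.03 and 3.19 with DT, against 2.34 and 2.57 with PBS. With DT, all ARF-DTR samples lay below, and both wild type samples above, the PBS samples of their genotype. Adamts1 was 1.29-fold lower with DT in ARF-DTR lungs (-0.37 ± 0.09, adjusted p = 0.00952) and changed by 0.65 ± 0.13 in wild type (0.0601). The difference between these responses was -1.02 ± 0.16 (adjusted p = 0.00746, past the threshold under all 25 alternatives), in 1 of 36 members (2.78%) against 2.11% of all genes (0.853% higher and 1.25% lower). It rests on 2 wild type arrays per group and on ARF-DTR groups from different slides, and 2 members passed without either wild type DT array. With PBS, ARF-DTR lungs were 0.77 ± 0.11 above wild type lungs, across slides (adjusted p = 8e-04). In that comparison 3 members were higher and 1 lower (11.1%, against 23.6% of all genes, 10.9% higher and 12.7% lower), and 1 passed without wild type PBS replicate 1. Within slide 2, DT-treated ARF-DTR lungs were 0.41 ± 0.11 above wild type PBS lungs (0.049), a call lost under 19 of 26 alternatives, and -0.25 ± 0.11 from wild type DT lungs (0.295). The other kept proteases of this type, Adamts5, Adamts8, Adamts9 and Adamts15, did not pass with age or with DT in ARF-DTR lungs. Their DT changes lay between -0.34 (Adamts8) and -0.07 (Adamts5), and a second Adamts8 probe gave -0.89.

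Adamts7, an enzyme that cuts cartilage oligomeric matrix protein, had the smallest adjusted p of the members with DT in ARF-DTR lungs. Its log2 level was -4.53, -4.16, -4.47 and -4.51 in DT-treated ARF-DTR lungs, against -3.62, -3.23, -3.77 and -3.03 in PBS-treated ones and -3.53, -3.77, -3.91 and -4.0 at 2 months. Among wild type mice, it was at -4.65 and -4.42 with DT, where replicate 1 was not well above background, against -4.51 and -4.30 with PBS. The DT-treated ARF-DTR samples lay below all other ARF-DTR samples, which were all on the other slide, and overlapped the wild type samples of their own slide. Adamts7 was 2.00-fold lower with DT than with PBS (-1.0 ± 0.16, adjusted p = 0.000946), and -0.28 with normexp background correction (0.0098). Within slide 2, it differed by -0.02 ± 0.19 from wild type PBS (adjusted p = 0.976) and by 0.12 ± 0.19 from wild type DT (0.825). PBS-treated ARF-DTR lungs were 0.99 ± 0.19 above wild type PBS lungs across slides (0.00398), which was lost without wild type PBS replicate 1 (0.88, adjusted p = 0.0504) and with normexp (0.20, 0.104). Adamts12, which cuts the same protein, was above background on 4 arrays and did not pass in any comparison.

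Adamts6 and Adamts10, linked to fibrillin microfibrils, were lower in DT-treated 12-month than in 2-month ARF-DTR lungs. Adamts6 had levels of -5.36, -5.71, -5.65 and -5.36 in DT-treated ARF-DTR lungs, none of them well above background, against -5.46, -5.35, -4.85 and -5.14 in PBS-treated ones and -5.30, -4.79, -4.79 and -5.16 at 2 months. In wild type lungs Adamts6 was at -5.92 and -5.75 with DT, none well above background, against -4.77 and -4.73 with PBS, where 1 of 2 arrays was well above background. The DT-treated ARF-DTR samples lay below the 2-month and the wild type PBS samples. Adamts6 was 1.43-fold lower with DT than at 2 months (adjusted p = 0.0197) and 1.71-fold lower than in wild type PBS lungs (0.03). Both folds rest on DT signals not well above background. The dim group was also set at the lowest signal well above background on each array, or at its own value where that was higher. This left both folds unchanged, so they are estimates and not lower bounds. With normexp the first difference turned to 0.20 and the second was -0.15 (adjusted p = 0.469). The second was also lost without DT replicate 2, 3 or 4 (0.0505 to 0.0657) or either wild type PBS array (0.142 and 0.161) and with only the groups compared (0.0554), and the first without 2-month replicate 2 or 3 or DT replicate 3 (0.0572 to 0.0627). Adamts10 ranged from -1.0 to -0.37 in DT-treated lungs, against -0.24 to 0.11 at 2 months (-0.59 ± 0.15, adjusted p = 0.01), and its second probe gave -0.40. In all, 3 members were higher and 9 lower in DT-treated 12-month than in 2-month ARF-DTR lungs (33.3%, against 30.7% of all genes, 14.7% higher and 15.9% lower), a comparison that crossed slides. The members not yet given there were Adamts13, which cuts von Willebrand factor, Adamts9 (-0.39 ± 0.12, adjusted p = 0.0243), Adamts1 (-0.28 ± 0.09, 0.0298) and Adamts7 (-0.61 ± 0.16, 0.0103). Adamts13 was at least 1.31-fold lower with its dim group set in the same way (adjusted p = 0.0152), but changed by 0.11 with normexp. The call of Adamts7 was lost with normexp (-0.06), that of Adamts9 without 2-month replicate 1 or 2 or DT replicate 3 (0.0574 to 0.0686), and that of Adamts1 without 2-month replicate 1, 2 or 4 or DT replicate 1 or 4 (0.0545 to 0.0842). Mmp24 lost its call there without 2-month replicate 1, 2 or 3 or DT replicate 2, 3 or 4 (0.0543 to 0.113), with quantile normalization (-0.67, 0.139) and without the filter on dim probes (0.0561), and Mmp27 without 2-month replicate 4 or DT replicate 4 (0.0711 and 0.0613). Adamts17 and Adamts18 did not pass in any comparison.

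Of the 4 inhibitors, Timp1 rose and Timp4 fell with DT in ARF-DTR lungs, while Timp2 and Timp3 did not pass in any comparison of the main setting. Timp1, an inducible inhibitor of most secreted Mmp enzymes, had log2 levels of 1.57, 1.19, 3.41 and 1.61 in DT-treated ARF-DTR lungs, against 1.15, 1.01, 0.47 and 0.87 in PBS-treated ones and 1.59, 1.12, 1.28 and 1.49 at 2 months. Wild type lungs had 1.59 and 1.08 with DT, against 0.93 and 0.98 with PBS. Every DT-treated sample lay above every PBS-treated sample of its genotype, and DT replicate 3 of the ARF-DTR mice lay far above the others. Timp1 was 2.10-fold higher with DT in ARF-DTR lungs (1.07 ± 0.37, adjusted p = 0.0434), and 0.58 without DT replicate 3 (adjusted p = 0.0382). The call was lost under 14 of 25 alternatives, with an adjusted p of 0.11 at most. They were quantile normalization (0.0553), no filter on dim probes (0.0646), the replicate block (0.0589), only the groups compared (0.11), and leaving out 2-month replicate 2, 3 or 4, any 1 PBS array, DT replicate 4 or either wild type PBS array. The wild type change was 0.38 ± 0.52 (adjusted p = 0.838), and DT-treated ARF-DTR lungs were 0.99 ± 0.45 above wild type PBS lungs (0.216).

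Timp4 had log2 levels of -1.86, -2.14, -2.23 and -2.18 in DT-treated ARF-DTR lungs, against -1.27, -1.52, -1.60 and -1.46 in PBS-treated ones and -2.11, -1.87, -1.15 and -1.83 at 2 months. The wild type values of this gene were -1.49 and -1.24 with DT, against -1.02 and -0.93 with PBS. With DT, every sample lay below every PBS sample of the same genotype, and the DT-treated ARF-DTR samples lay below all wild type samples. Timp4 was 1.56-fold lower with DT in ARF-DTR lungs (-0.64 ± 0.17, adjusted p = 0.0126, past the threshold under all 25 alternatives). Within slide 2, DT-treated ARF-DTR lungs were 2.19-fold below wild type PBS lungs (-1.13 ± 0.20, adjusted p = 0.0108), which was lost without wild type PBS replicate 1 (0.075) or 2 (0.0749), and -0.74 ± 0.20 from wild type DT lungs (0.108). The last passed without 2-month replicate 3 (adjusted p = 0.0266) and without the filter on dim probes (0.039). Timp4 is known from vessels and muscle. Of 11 smooth muscle and pericyte markers, all kept, 6 fell and 0 rose with DT in ARF-DTR lungs, against 13.4% of all genes lower and 15.8% higher. Among the 6 were Acta2 (-0.71), Tagln (-0.58) and Lmod1 (-0.71). The summed log2 level of the 11 was 6.52 to 6.74 with DT, against 7.06 to 7.34 with PBS. At 2 months the sum was 7.25 to 8.13, and with age 3 of the 11 fell (3.42% of all genes), while Timp4 changed by 0.28 and did not pass. The sum in wild type lungs was 6.74 to 6.84 with DT, against 7.14 to 7.21 with PBS, and its part in the fall of Timp4 was not tested.

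Timp2, which takes part in pro-Mmp2 activation with Mmp14, had levels of 6.55, 6.64, 6.58 and 6.56 in DT-treated ARF-DTR lungs, against 6.48, 6.71, 6.67 and 6.42 in PBS-treated ones and 6.97, 6.88, 6.55 and 6.56 at 2 months. Among wild type mice, Timp2 was at 6.57 and 6.43 with DT, against 6.70 and 6.73 with PBS. The ARF-DTR groups overlapped, and the DT change was 0.01 ± 0.10 (adjusted p = 0.931), while a second, dimmer probe gave 0.38. In DT-treated 12-month against 2-month lungs, Timp2 changed by -0.16 (limma, adjusted p = 0.255), but passed with quantile normalization (-0.48, 0.00881). Timp3, the inhibitor held in the matrix that also blocks ADAMTS enzymes, had levels of 5.54, 5.66, 5.34 and 5.55 in DT-treated ARF-DTR lungs, against 5.44, 5.65, 5.45 and 5.46 in PBS-treated ones and 5.77, 5.68, 5.45 and 5.58 at 2 months. In wild type lungs Timp3 was at 5.61 and 5.84 with DT, against 5.57 and 5.62 with PBS. All 5 groups overlapped with at least 1 other, and the DT change was 0.02 ± 0.09 in ARF-DTR (adjusted p = 0.87). With age, Timp1 to Timp4 changed by -0.50, -0.17, -0.12 and 0.28, and 0 of 4 passed (limma, unadjusted p under 0.05 for 0). Without 2-month replicate 3, Timp4 passed with age (0.48, adjusted p = 0.0276).

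Genes around these enzymes were described by lists chosen with earlier results of these data known. Of all genes, 15.8% rose and 13.4% fell with DT in ARF-DTR lungs, and 2.73% rose and 3.42% fell with age. The counts below are to be read beside these shares, and no list was tested as a set. Of 19 kept activators, receptors and other inhibitors of metalloproteinases, 8 rose and 2 fell with DT in ARF-DTR lungs. The membrane-anchored inhibitor Reck (-0.63, adjusted p = 0.00105) and the procollagen C-proteinase enhancer Pcolce2 (-0.48, 0.000497) fell, and the Mmp inducer Bsg rose (0.55, 0.00115). With age, 1 of the 19 rose and 3 fell, including Reck (-0.40) and the proprotein convertase Pcsk5 (-0.65), while the convertase Pcsk6 rose (0.53). Of 21 matrix substrates, 4 fell and 0 rose with age, with the basement membrane genes Nid1 (-0.57), Lama2 (-0.48) and Lamc1 (-0.42) as those of smallest p. With DT in ARF-DTR lungs, Bcan (1.25) and Fbln1 (0.45) rose and Vcan, which encodes versican, fell (-0.46). Of 14 lysosomal and neutrophil elastolytic proteases and antiproteases, 7 rose and 1 fell with DT in ARF-DTR lungs. Those of smallest p were the inhibitors of cysteine cathepsins Cst3 (0.41) and Cstb (0.55), which rose, and neutrophil elastase Elane, which fell (-0.84). Cathepsin genes were also among the 7, so both proteases and inhibitors rose. Of 12 ADAM proteases, 2 rose (Adam9 and Adam10, 0.32 and 0.23) and 5 fell, led by Adam33 (-0.50). Of 17 factors known to act at Mmp promoters, 2 rose and 2 fell with DT in ARF-DTR lungs. Etv5 rose (0.57), while Fos (-1.06), which is part of the AP-1 factor that binds the motif shown above, and Egr1 (-0.86) fell. The Fos-related Fosl2 of this list rose with age (0.49, limma, adjusted p = 0.0146). In DT-treated 12-month against 2-month lungs, Fosl2 rose (0.52), while Fos (-1.14) and Egr1 (-1.65) fell. The part of these factors in the changes of the cluster genes was not tested. Within slide 2, Fos (-1.82, adjusted p = 0.0143) and Egr1 (-1.96, 0.00959) were lower in DT-treated ARF-DTR than in wild type PBS lungs. That comparison differs in both genotype and DT, which it cannot separate. Egr1 was lower in DT-treated ARF-DTR than in wild type DT lungs too (-1.77, limma, adjusted p = 0.0339). Across slides, it was lower in ARF-DTR than in wild type lungs with PBS (-1.10, 0.0342). The median changes of these lists with DT in ARF-DTR lungs were 0.13 for the activators and inhibitors, 0.04 for the substrates, 0.43 for the elastolytic list, 0.01 for the ADAM proteases and -0.03 for the factors, against 0.00 over all genes.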

How the data were processed

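Lung RNA of 16 samples was hybridised to single-colour (Cy3) Agilent arrays of 55681 probes, designed on build mm9. Spot signals had been read with Agilent Feature Extraction 10.10.1.1, per the submitters' processing notes, and the processed signal is an intensity that is background-subtracted and detrended within each array, per the file headers. The authors' deposited series table holds log2 values, with no steps stated, which matched the scaled scanner values. Outlier spots were left out, spots of a probe averaged, and log2 signal minus the 75th percentile of the array taken. Probes well above background on at least 4 of 16 arrays were kept, with the brightest probe per gene. Gene names came from RefSeq by accession (27656 probes) or symbol (3401 probes) and otherwise from the array files. Changes were fitted in limma 3.58.1 (R 4.3.3) with 1 mean per group over all 16 arrays, moderated by eBayes, in 8 comparisons, with Benjamini-Hochberg adjustment over 25675 genes. The procedure was tested on simulated data.

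The members and gene lists were chosen with earlier results of these data known. Values of every array were given for members past the threshold with age, with DT in ARF-DTR or within a slide, and for Timp1 to Timp4, Mmp2, Mmp3, Mmp9, Mmp12 and Mmp14; genes outside the family were named from the lists only, up to 3 per list by smallest adjusted p. Alternatives were array medians, quantile normalization, normexp background correction (offset 50), the deposited table, other filters and probe choices, a replicate block, fits to the compared groups or slide 2 alone (the last chosen after seeing the data), and leaving out each array. For comparisons that cross slides, no fit with slide as a term could be had. For 1 wild type PBS sample the description names DT while the title and treatment give PBS, and it was kept as PBS. No sample of the fit was dropped or imputed.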

Additional observations from a re-analysis of the deposited data

Results flagged for a closer look

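The response of Adamts1 to DT differed between ARF-DTR and wild type lungs by -1.02 on the log2 scale, as tested by the interaction term of the fit.

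In 11 of 108 groups of 4 samples, 1 sample lay far from the other 3 by Dixon's test, which chance gives in about 5% of groups. In DT-treated ARF-DTR lungs, replicate 2 stood apart for Mmp13 (-5.05, the others -3.37 to -3.27), Mmp9 (-1.15, the others -2.37 to -2.21), Mmp15 (0.51, the others 0.70 to 0.73) and Adamts7 (-4.16, the others -4.53 to -4.47). Replicate 1 of that group stood apart for Adamts18 (-6.67, the others -5.40 to -5.19). In PBS-treated ARF-DTR lungs, replicate 2 stood apart for Adamts15 (2.90, the others 2.26 to 2.36) and Timp3 (5.65, the others 5.44 to 5.46), and replicate 4 for Adamts5 (-1.65, the others -2.44 to -2.34). At 2 months, replicate 3 stood apart for Adamts1 (3.05, the others 3.17 to 3.18), and replicate 4 for Adamts10 (0.11, the others -0.24 to -0.19) and Mmp27 (-3.46, the others -3.87 to -3.82). All are log2 levels.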

How the results depend on the processing

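Of 2471 alternative values of 98 named member changes, 2338 kept their direction and side of the threshold, 116 lost the call, 13 gained one and 4 turned direction. The 4 were falls of dim genes in DT-treated 12-month against 2-month ARF-DTR lungs, which under normexp background correction became 0.11 for Adamts13, 0.20 for Adamts6, 0.22 for Mmp24 and 0.088 for Mmp27, and the cause was not tested. Most of the 98 changes were not called in the main setting and could not lose a call. The totals are therefore no measure of how steady the called changes were. Normexp passed 15 members with DT in ARF-DTR, 6 in the difference between genotypes and 14 in ARF-DTR against wild type with PBS, of 36 members each, where it passed 37.8%, 7.82% and 30.9% of all genes. The median of all genes in the last 2 of these was 0.12 and -0.12 under it, against 0.04 and -0.02 in the main setting. The share of higher genes among all calls with DT in ARF-DTR was 54% in the main setting, 64.2% with array medians and 73.9% with normexp. Under normexp it was 80.8% against 40.5% for the difference between genotypes, 67.1% against 48.1% for DT-treated 12-month against 2-month lungs, and 23.4% against 46.2% for ARF-DTR against wild type with PBS. The share of all genes passed under the same setting is given in brackets. With age, 1 member passed without the filter on dim probes (3.43%), 1 with probe means (6.2%) and 1 with only the compared groups (3.76%). With the filter at all 16 arrays, which tests fewer members, 6 passed in DT-treated 12-month against 2-month lungs (34.4%). Fits to the compared groups alone, which have fewer arrays, passed 2 for DT-treated ARF-DTR against wild type PBS (1.46%) and 0 against wild type DT (0.0234%). Against wild type DT, 0 passed with slide 2 alone (0.0623%), 3 without the filter (10.2%) and 2 with the replicate block (0.351%). Replicate numbers were not treated as pairs in the main setting. Deviations of same-numbered samples of different groups correlated between -0.20 and 0.33, which cannot show whether the samples were paired. The block ended the call of Timp1 with DT in ARF-DTR (adjusted p = 0.0589) and that of Adamts1 against wild type PBS (0.0606), and it gave one to Mmp2 in ARF-DTR against wild type with PBS (0.0196). Leaving out 1 array gave 1 to 6 members with age, 4 to 8 with DT in ARF-DTR, 0 to 1 with DT in wild type, 1 to 2 for the difference between genotypes, 8 to 13 for DT-treated 12-month against 2-month lungs, 1 to 6 for ARF-DTR against wild type with PBS, 0 to 6 for DT-treated ARF-DTR against wild type PBS and 1 to 2 against wild type DT. Signal over background limits Adamts3, Adamts12 and Adamts18, each well above it on 4 arrays.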
